A study of Mus musculus with 10 samples.

Results

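The TGF-beta ligand and receptor genes were followed through mouse pancreatic tumours with and without doxycycline. The set was given by name and holds 10 of the 23924 gene symbols usable in each table. These are the ligand genes Tgfb1, Tgfb2, Tgfb3 and Inhba, the receptor genes Tgfbr1, Tgfbr2 and Tgfbr3, and the SMAD genes Smad3, Smad4 and Smad7. All 10 were found in both tables. RNA was sequenced from whole tumours that grew in the pancreas of athymic nude hosts, mice without a thymus and so with few T cells. The groups were 3 KrasT tumours given doxycycline, 3 untreated KrasT tumours, 2 MycT tumours given doxycycline and 2 untreated MycT tumours. Treated hosts drank doxycycline at 100 ug/ml with 2.5% sucrose for 2 weeks (14 days in the sample labels), and untreated tumours are labelled 0 days. Doxycycline is the drug that switches tetracycline-controlled transgenes, and the series asks what remains of a tumour when its driving oncogene is off. The labels give KrasT and MycT only as model names, without the promoter or the cells that carry a transgene. They do not say whether the tumours of a model descend from 1 line, and they name no sucrose for untreated hosts, so effects of sucrose and of the drug itself cannot be told apart from those of the oncogene.

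TGF-beta ligands are secreted in a latent form that is stored in the matrix and must be released before it can signal. Active ligand is bound by the type II receptor made from Tgfbr2, which phosphorylates the type I receptor made from Tgfbr1, while betaglycan, made from Tgfbr3, holds ligand at the cell surface. The type I receptor phosphorylates the SMAD2 and SMAD3 proteins, which enter the nucleus with SMAD4, and SMAD7 is an inhibitor that the pathway induces against itself. In the pancreas the pathway is known for restraining epithelial growth, for driving matrix production by fibroblasts and for the frequent loss of SMAD4 in human carcinomas.

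Values are FPKM, that is fragments per length of gene and per mapped fragments of the library, so levels of different genes can be set beside each other within a library. The 2 tables were made separately, and levels are not tested between models. Total FPKM was 513949 to 569272 in doxycycline KrasT libraries and 789672 to 1018968 in untreated ones, and 546008 and 557227 in doxycycline MycT libraries against 1126800 and 1517332 in untreated ones. Reads per library are unknown; the relative depth that the smallest value steps give was 0.832 to 1.188 in doxycycline and 0.756 to 1.0 in untreated KrasT libraries, in units of untreated replicate 1. In MycT it was 0.621 and 0.848 in doxycycline and 0.926 and 1.0 in untreated libraries, in units of untreated replicate 2. Rn45s, the ribosomal RNA precursor, was at 17239 FPKM in KrasT doxycycline replicate 1 and at 20880.0 FPKM in MycT doxycycline replicate 2, against at most 2231 FPKM elsewhere. The epithelial keratin Krt18 was present in every library, at 84.2 FPKM or more, as the label of pancreatic tumour implies.

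Whole tissue also holds other cells, and the summed levels of their markers differed between the groups. The summed level of 10 fibroblast markers was 4001 to 9278 FPKM in doxycycline and 328 to 733 FPKM in untreated KrasT libraries, with the mean higher after doxycycline for 10 of 10. In MycT the sums were 1704 and 2460 FPKM in doxycycline and 37.3 and 459 FPKM in untreated libraries, again higher for 10 of 10. The 8 endothelial markers summed to 93.4 to 194.8 FPKM in doxycycline and 25.3 to 50.2 FPKM in untreated KrasT libraries, and to 75.7 and 142.7 FPKM against 13.4 and 48.0 FPKM in MycT. The sum of the 8 ductal epithelium markers went the opposite way in KrasT, with 0 of 8 means higher after doxycycline. It was 280.3 to 1814 FPKM in doxycycline and 2373 to 18471 FPKM in untreated libraries. Of these markers only Krt8 and Krt18 had no overlap between the KrasT groups. For Epcam, Krt7, Cdh1 and Muc1 the lowest untreated value was below the lowest doxycycline value (7.22 against 26.1 FPKM for Epcam). In MycT the ductal sums were 821 and 1866 FPKM in doxycycline and 481 and 1232 FPKM in untreated libraries, with 7 of 8 means higher after doxycycline. No fibroblast, endothelial or ductal marker was at 0 throughout a group. The 8 macrophage markers summed to 242.6 to 845.9 FPKM in doxycycline and 132.8 to 156.6 FPKM in untreated KrasT libraries, and to 390.3 and 544.7 FPKM against 83.2 and 231.5 FPKM in MycT, with 8 of 8 means higher in both models. Between the KrasT groups the macrophage markers Cd68, Cd14, Mrc1 and Aif1 overlapped, as did Fap and Thy1 of the fibroblast list and Cldn5 of the endothelial list. Between the MycT groups Fcgr1 of the macrophage list and Cldn5 overlapped. Sums of skeletal muscle markers (6 genes) ran from 64.5 to 5318 FPKM in doxycycline and from 3.24 to 413.2 FPKM in untreated KrasT libraries, and were 8.83 and 6423 FPKM against 5.08 and 7.13 FPKM in MycT, so some tumours carried far more muscle RNA than others of their group.

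Smooth muscle and pericyte markers (7 genes) summed to 233.8 to 320.9 FPKM in doxycycline and 37.6 to 184.5 FPKM in untreated KrasT libraries, and to 260.6 and 271.6 FPKM against 33.8 and 150.0 FPKM in MycT. Adipocyte markers (6 genes) summed to 145.1 to 2867 FPKM in doxycycline and 13.4 to 51.5 FPKM in untreated KrasT libraries, and to 412.3 and 1532 FPKM against 67.5 and 76.3 FPKM in MycT. T and NK cell markers (7 genes) were low, at 7.62 to 11 FPKM in doxycycline and 0 to 2.82 FPKM in untreated KrasT libraries, and at 18.1 and 49.2 FPKM against 0.820 and 3.22 FPKM in MycT. These 3 lists did not overlap between the groups of either model. Acinar markers (8 genes) overlapped in both models, at 141.6 to 16027 FPKM in doxycycline and 25.1 to 390.6 FPKM in untreated KrasT libraries, and at 111.9 and 1659 FPKM against 97.7 and 356.8 FPKM in MycT. The 4 neutrophil markers in the tables summed to 126.0 to 191.6 FPKM in doxycycline and 12.1 to 65.1 FPKM in untreated KrasT libraries, and overlapped in MycT, at 355.5 and 367.8 FPKM against 32.5 and 442.1 FPKM. The amylase gene Amy2a5 was listed at 0 throughout each group but doxycycline KrasT, Lep in both untreated groups and Plin1 in untreated MycT. In such bulk tissue fewer cells of a type and less RNA per cell cannot be told apart, and the part of these cells in the results below was not tested.

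Of the ligand genes, Tgfb3 and Tgfb2 rose after doxycycline in KrasT tumours. Tgfb1, the highest of them in untreated tumours, had lower values after doxycycline that did not pass the test, and neither did those of Inhba. By limma on log2(FPKM + 1), with p adjusted over all 12696 genes tested and called under 0.05, 3 of the 10 genes rose (Tgfb2, Tgfb3 and Tgfbr3) and 1 fell (Smad3). Among all genes tested 16.7% were called, 8.46% as higher and 8.25% as lower. Leaving out 1 library changed the count: 0 of the 10 were called without doxycycline replicate 3, untreated replicate 2 or untreated replicate 3, where 120, 341 and 113 genes were called in all, and 5 without untreated replicate 1, where 4223 were. Without the filter on low values 0 of the 10 passed, with limma adjusted p of 0.0521 to 0.0632 for the 4 genes, and 1214 genes were called in all. The groups did not overlap for 7 of the 10 genes, 3 higher and 4 lower after doxycycline, where the same held for 39.8% of all genes tested, 16.8% higher and 23.0% lower. The median log2 change of the 10 genes was -0.09, beside -0.10 over all genes.

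Tgfb1 codes for the most widely expressed TGF-beta isoform. It was at 66.4, 17.6 and 26.5 FPKM in doxycycline KrasT replicates 1 to 3, against 90.0, 104.3 and 84.1 FPKM in the untreated replicates. Every untreated library was above every doxycycline library, but doxycycline replicate 1, the library high in Rn45s, stood closest to the untreated range. The log2 change of -1.52 ± 0.47 (SE) missed the threshold (limma adjusted p = 0.0681). Without doxycycline replicate 1 it was -2.05 (limma adjusted p = 0.0250), so that library decides whether Tgfb1 is called. That library also had more of the macrophage marker Cd68 than doxycycline replicates 2 and 3 (447.7 against 33.6 and 80.8 FPKM). Its level of the epithelial keratin Krt18 was lower than theirs (84.2 against 542.5 and 436.1 FPKM). Whether any of these traits bears on the Tgfb1 values was not tested.

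Tgfb3, an isoform known from mesenchymal tissue and palate formation, showed the opposite pattern. Its level was 76.7, 68.5 and 119.6 FPKM in doxycycline KrasT libraries, against 21.7, 8.73 and 5.32 FPKM in untreated ones. All doxycycline libraries were well above the highest untreated library, which was replicate 1. The means were 88.3 ± 27.5 and 11.9 ± 8.64 FPKM (SD, n = 3 each), a ratio of 7.41, and the log2 change was 2.96 ± 0.49 (SE; limma adjusted p = 0.0162). The call was lost without doxycycline replicate 3 (adjusted p = 0.0775), untreated replicate 2 (0.0615) or untreated replicate 3 (0.0643), with changes of 2.54 to 3.47 over the 6 fits that left out 1 library.

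Tgfb2, the isoform that binds the type II receptor weakly unless betaglycan presents it, was low in all KrasT tumours. It had 7.57, 4.71 and 7.07 FPKM in doxycycline libraries, against 2.09, 0.784 and 1.42 FPKM in untreated ones. The groups did not overlap, and the log2 change was 1.63 ± 0.32 (SE; limma adjusted p = 0.0221). Without doxycycline replicates 1 or 3 or untreated replicates 2 or 3 the adjusted p was 0.0596, 0.0994, 0.0708 and 0.0800, and it was 0.0519 under quantile normalization.

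Inhba codes for the subunit of activin A, a ligand that signals through related receptors to the same SMAD proteins. It was at 3.37, 1.31 and 1.54 FPKM in doxycycline KrasT libraries and at 5.68, 2.89 and 2.01 FPKM in untreated ones, so the groups overlapped. The log2 change of -0.54 ± 0.40 (SE) did not pass (limma adjusted p = 0.392, 95% interval -1.49 to 0.42).

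In MycT tumours the ligand genes had higher mean levels after doxycycline, though 0 of the 3 tested passed in the MycT fit by limma. Tgfb1 was at 22.9 and 43.1 FPKM in doxycycline replicates 1 and 2, against 3.35 FPKM in untreated replicate 2 and 9.30 FPKM in the unnumbered untreated library, whose column carries a number that no label holds. Tgfb3 was at 33.8 and 31.3 FPKM in doxycycline libraries, against 2.62 FPKM in untreated replicate 2 and 7.70 FPKM in the unnumbered library. Tgfb2 was at 6.86 and 4.25 FPKM, against 2.34 FPKM in untreated replicate 2 and 0.384 FPKM in the unnumbered library. Each of these genes was higher in both doxycycline libraries than in both untreated ones. Inhba was at 0.600 and 2.46 FPKM in doxycycline libraries, against 0.254 and 0.550 FPKM in untreated ones, and was left out of the MycT tests because only 1 library reached 1 FPKM.

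With 2 libraries a group the test within MycT had little power: limma called 0 of the 9 genes tested and 5 of 12834 genes in all (0.0390%). An unadjusted p under 0.05 was found for 5 of the 9, and for 33.4% of all genes. The groups did not overlap for 7 of the 9, 6 higher and 1 lower after doxycycline, which also held for 64.7% of all genes tested, 31.9% higher and 32.8% lower. The log2 changes of Tgfb1, Tgfb2 and Tgfb3 were 2.28 ± 0.58, 1.58 ± 0.56 and 2.58 ± 0.52 (SE; limma adjusted p = 0.0852, 0.131 and 0.0689). When all 10 libraries shared 1 limma fit, Tgfb1, Tgfb2, Tgfb3, Tgfbr2 and Tgfbr3 rose in MycT, 5 of the 9, where 20.4% of all genes were called, 8.11% as higher and 12.3% as lower. In this joint fit the adjusted p of Tgfb1, Tgfb2 and Tgfb3 was 0.0333, 0.0459 and 0.0215.

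Those joint calls rested on individual libraries, and joint calls over all genes also became fewer whenever 1 MycT library was left out. Tgfb1 lost its call without doxycycline replicate 1 (limma adjusted p = 0.0678), doxycycline replicate 2 (0.187) or untreated replicate 2 (0.172). Tgfb3 lost it without the same libraries, with 0.0895, 0.0962 and 0.115. Tgfb2 lost it without doxycycline replicate 1 (0.204), doxycycline replicate 2 (0.109) or the unnumbered untreated library (0.190), and its log2 change was then as low as 0.94. Doxycycline replicate 2 is the MycT library high in Rn45s, and 0 of the 9 genes were called in a joint fit without both libraries high in Rn45s (251 of 12073 genes in all).

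**Figure D1:**
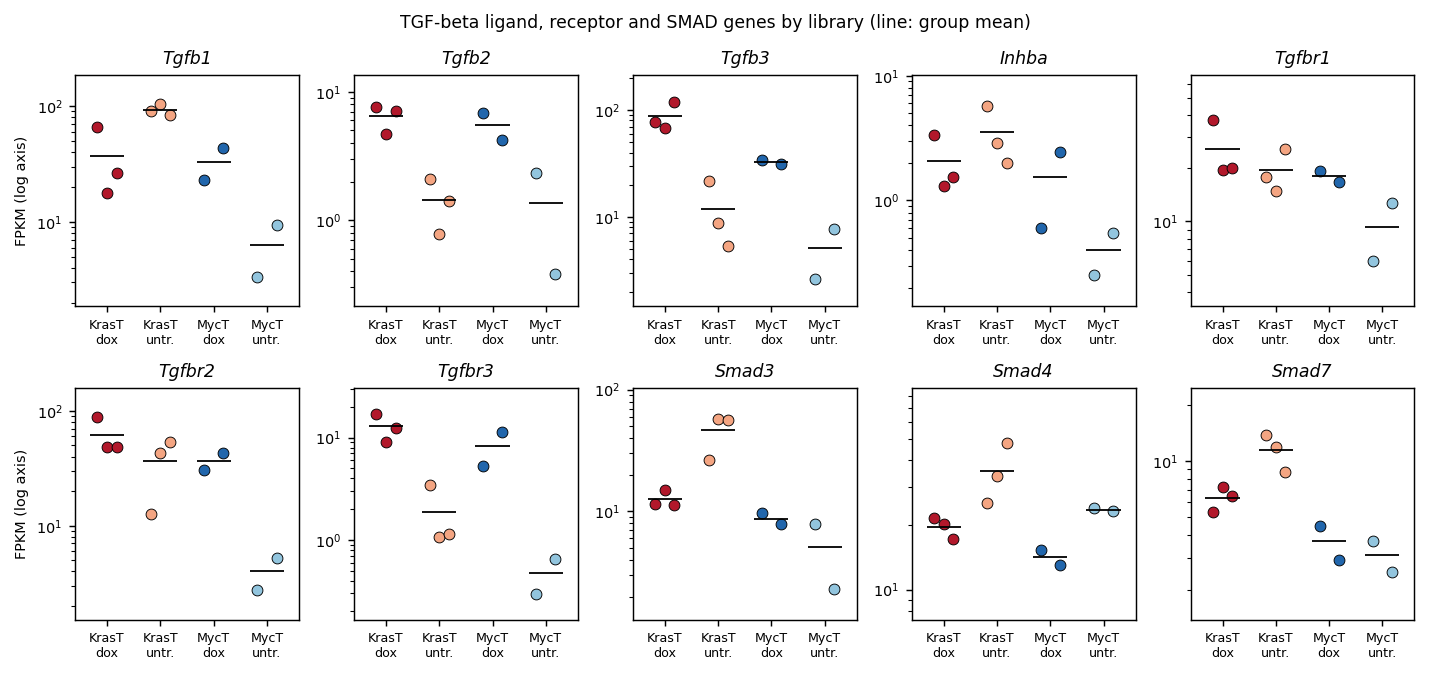
FPKM on log axes of the 10 genes in each library of the 4 groups (dox, doxycycline; untr., untreated), with a black line at each group's mean. In KrasT the doxycycline points lie above the untreated ones for Tgfb2, Tgfb3 and Tgfbr3 and below them for Tgfb1, Smad3, Smad4 and Smad7, while in MycT they lie above for all 3 Tgfb ligand genes and all 3 receptor genes.

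A measure that no scaling between libraries can move is the share of each isoform in the summed FPKM of Tgfb1, Tgfb2 and Tgfb3. In KrasT the make-up turned over. Tgfb1 held 44.1%, 19.4% and 17.3% of the sum in doxycycline libraries, against 79.1%, 91.6% and 92.6% in untreated ones. Tgfb3 held 50.9%, 75.4% and 78.1% in doxycycline libraries, against 19.1%, 7.67% and 5.85% in untreated ones. The ratio of Tgfb3 to Tgfb1 was thus 1.15, 3.89 and 4.52 after doxycycline and 0.241, 0.0837 and 0.0632 untreated, with no overlap. The sum itself overlapped between the groups, at 150.7, 90.8 and 153.2 FPKM in doxycycline libraries and 113.8, 113.8 and 90.8 FPKM in untreated ones.

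In MycT the sum did not overlap between the groups, while the shares did. The summed ligand level was 63.6 and 78.6 FPKM in doxycycline libraries, against 8.30 FPKM in untreated replicate 2 and 17.4 FPKM in the unnumbered library. Tgfb1 held 36.0% and 54.8% of it after doxycycline and 40.3% and 53.5% untreated, so these ranges overlapped. Tgfb3 held 53.2% and 39.8% after doxycycline and 31.5% and 44.3% untreated, again with overlap. The share of Tgfb2 ran from 2.21% to 28.2% in the untreated libraries and was 10.8% and 5.40% after doxycycline.

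**Figure D2:**
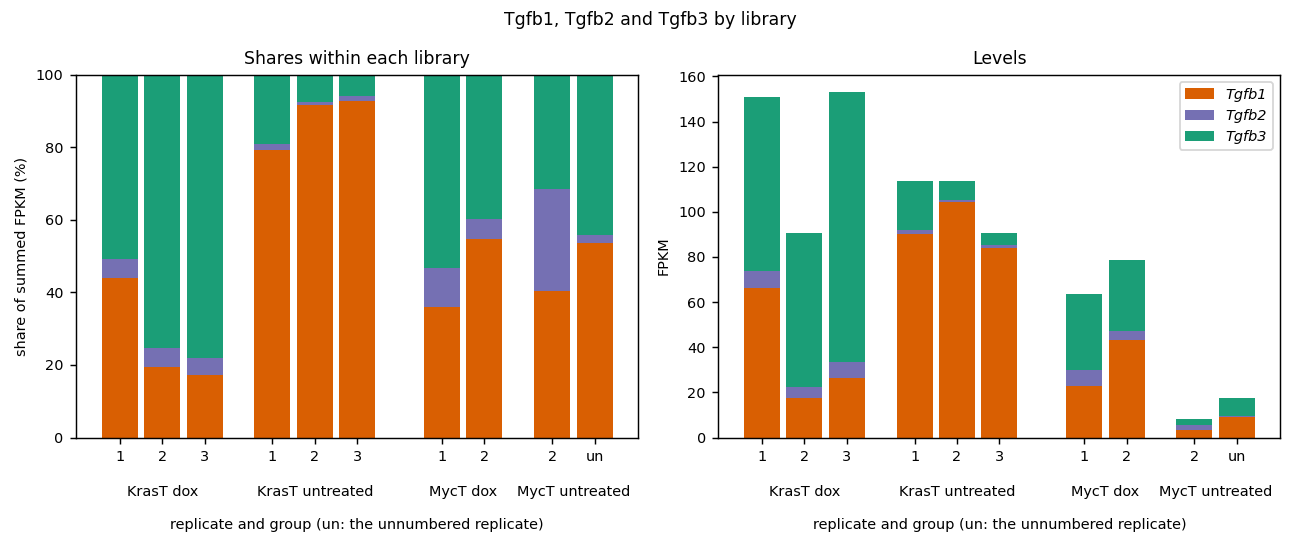
Stacked bars of Tgfb1, Tgfb2 and Tgfb3 in each library, as percent of their summed FPKM (left) and as FPKM (right); "un" is the untreated MycT library without a number. Tgfb1 holds 79.1% or more of every untreated KrasT bar and 44.1% or less of every doxycycline KrasT bar, whereas the MycT bars differ mainly in height.

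Because Tgfb1 and Tgfb2 had log2 changes of opposite sign in KrasT, and Smad3 fell there, their promoters are shown. The sequences are from RefSeq on build GRCm38.p6, read 5′ to 3′, and cover the 250 bases before the annotated start. This is not the mm9 build named for the tables. Promoter entries were used for 6 of the 10 genes. No entry was found for Tgfb3 and Tgfbr3, and Smad4 and Smad7 were left out. Capitals mark matches, on either strand, to 6 motifs: the E-box CACGTG bound by MYC and its partners, the AP-1 site TGANTCA, the cyclic AMP element TGACGTCA, TATAAA, the GC box GGGCGG and the SMAD box CAGAC. No base belonged to more than 1 match.
Tgfb1, chr7:25686752-25687001, + strand: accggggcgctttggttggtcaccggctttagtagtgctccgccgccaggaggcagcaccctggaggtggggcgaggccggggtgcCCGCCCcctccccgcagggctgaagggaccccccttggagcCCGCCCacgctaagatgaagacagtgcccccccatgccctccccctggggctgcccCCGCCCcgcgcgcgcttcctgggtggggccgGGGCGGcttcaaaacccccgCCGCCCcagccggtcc
Tgfb2, chr1:186705990-186706239, - strand: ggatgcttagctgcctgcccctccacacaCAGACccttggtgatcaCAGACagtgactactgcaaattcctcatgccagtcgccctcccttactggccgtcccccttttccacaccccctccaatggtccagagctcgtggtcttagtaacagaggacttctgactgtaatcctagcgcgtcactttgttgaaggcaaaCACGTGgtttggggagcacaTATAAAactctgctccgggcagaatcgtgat
Smad3, chr9:63757995-63758244, - strand: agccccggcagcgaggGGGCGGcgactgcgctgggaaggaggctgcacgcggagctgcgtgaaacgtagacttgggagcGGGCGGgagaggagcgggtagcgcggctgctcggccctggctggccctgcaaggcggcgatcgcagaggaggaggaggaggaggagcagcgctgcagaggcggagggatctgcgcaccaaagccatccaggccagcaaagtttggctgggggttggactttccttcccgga
The Tgfb1 stretch was 75.2% G and C, beside a median of 52.4% over 32851 promoter windows of this length, and held 5 GC boxes and no match to the other 5 motifs. Tgfb2 held 1 E-box beginning 51 bases before the start, 1 TATAAA at 31 bases and 2 SMAD boxes at 221 and 204 bases. Smad3 held 2 GC boxes, at 234 and 171 bases. Among the genes whose sequences are not shown, Inhba held 1 TATAAA at 91 bases and Tgfbr2 held 1 SMAD box at 160 bases. Tgfbr1 held 2 GC boxes at 133 and 95 bases before 1 start, and 1 SMAD box at 203 bases before another start. A GC box was in 32.7% of all windows, a SMAD box in 42.2%, TATAAA in 12.4%, TGANTCA in 6.75%, an E-box in 6.02% and TGACGTCA in 1.55%. These matches describe letters and say nothing of binding.

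Of the receptor genes, the betaglycan gene Tgfbr3 passed in KrasT, where it rose, and Tgfbr1 and Tgfbr2 did not pass; the receptor genes' changes were not tested against each other. Tgfbr3 had 17.0, 9.14 and 12.4 FPKM in doxycycline KrasT libraries, against 3.44, 1.07 and 1.15 FPKM in untreated ones. The lowest doxycycline value was well above the highest untreated one, that of replicate 1. The log2 change was 2.32 ± 0.40 (SE; limma adjusted p = 0.0170), and the call was lost without doxycycline replicate 3 (0.0811), untreated replicate 2 (0.0621) or untreated replicate 3 (0.0739). In MycT Tgfbr3 had 5.32 and 11.4 FPKM in doxycycline libraries, against 0.298 FPKM in untreated replicate 2 and 0.643 FPKM in the unnumbered library. The ratio of means was 17.7 and the log2 change 2.60 ± 0.46 (SE; limma adjusted p = 0.0666 within MycT and 0.0105 jointly). The joint call was lost without doxycycline replicate 2 (0.0746) or untreated replicate 2 (0.0538).

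Tgfbr2, the ligand-binding type II receptor gene, was at 88.2, 48.1 and 48.4 FPKM in doxycycline KrasT libraries and at 12.7, 42.8 and 53.6 FPKM in untreated ones. The groups overlapped, since only untreated replicate 1 was far below the doxycycline values. In that library the epithelial keratin Krt18 was at 1497 FPKM, against 6277 and 3801 FPKM in the other untreated KrasT libraries. There Krt19 was at 154.1 FPKM against 3022 and 981.9 FPKM, and Epcam at 7.22 FPKM against 374.7 and 530.2 FPKM. Whether this bears on the Tgfbr2 values was not tested. The log2 change of 0.91 ± 0.56 (SE) did not pass (limma adjusted p = 0.296), and without untreated replicate 1 it was 0.30. In MycT the gene was at 30.6 and 43.1 FPKM in doxycycline libraries, against 2.74 FPKM in untreated replicate 2 and 5.28 FPKM in the unnumbered library. With 0.1 instead of 1 added to FPKM, Tgfbr3 had a larger MycT change than Tgfbr2 (3.86 against 3.22). On log2(FPKM + 1) the change of Tgfbr2, 2.95 ± 0.42 (SE), was the largest of the 9 genes tested in MycT (limma adjusted p = 0.0638 within MycT and 0.0158 jointly). The joint call was lost without doxycycline replicates 1 (0.0563) or 2 (0.0956) or untreated replicate 2 (0.0839).

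Tgfbr1, the type I receptor gene, was at 37.6, 19.7 and 19.9 FPKM in doxycycline KrasT libraries and at 17.9, 14.9 and 25.8 FPKM in untreated ones, with overlap (log2 change 0.35 ± 0.35 SE, limma adjusted p = 0.523, 95% interval -0.48 to 1.18). In MycT it was at 19.4 and 16.7 FPKM in doxycycline libraries, against 5.96 FPKM in untreated replicate 2 and 12.7 FPKM in the unnumbered library (log2 change 0.96 ± 0.45 SE, limma adjusted p = 0.208, joint fit 0.154). The ratio of Tgfbr2 to Tgfbr1 within a library was 1.58 and 2.57 in doxycycline MycT tumours and 0.459 and 0.417 in untreated ones. In KrasT it was 2.35, 2.45 and 2.43 after doxycycline and 0.707, 2.88 and 2.08 untreated, so the untreated libraries spread on both sides of the doxycycline ones.

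Among the SMAD genes only Smad3 passed in KrasT, where it fell; that the changes of Smad4 and Smad7 are smaller was not tested. Smad3, the receptor-activated SMAD that binds DNA directly, had 11.5, 14.9 and 11.4 FPKM in doxycycline libraries, against 26.2, 57.6 and 56.2 FPKM in untreated ones. The groups did not overlap, and untreated replicate 1 was the lowest of its group. The log2 change was -1.74 ± 0.36 (SE; limma adjusted p = 0.0244). Only the fit without untreated replicate 1 kept the call (0.00307), which was lost without doxycycline replicates 1, 2 or 3 (0.0682, 0.0563 and 0.103) or untreated replicates 2 or 3 (0.0786 and 0.0915). In MycT Smad3 had 9.66 and 7.82 FPKM in doxycycline libraries, against 7.94 FPKM in untreated replicate 2 and 2.33 FPKM in the unnumbered library, with overlap (log2 change 0.83 ± 0.57 SE, limma adjusted p = 0.360, joint fit 0.277).

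Smad4, the partner shared by TGF-beta, activin and BMP signals, had values lower after doxycycline in both models. In KrasT they were 21.4, 20.1 and 17.3 FPKM in doxycycline libraries and 25.2, 33.6 and 48.3 FPKM in untreated ones, without overlap. The log2 change of -0.79 ± 0.29 (SE) did not pass (limma adjusted p = 0.110) except without untreated replicate 1 (-1.01, 0.0264). In MycT Smad4 was at 15.3 and 13.1 FPKM in doxycycline libraries, against 23.9 and 23.2 FPKM in untreated ones (log2 change -0.70 ± 0.31 SE, limma adjusted p = 0.194, joint fit 0.155).

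Smad7, the feedback inhibitor, was at 5.27, 7.22 and 6.48 FPKM in doxycycline KrasT libraries and at 13.8, 12.0 and 8.74 FPKM in untreated ones, without overlap (log2 change -0.76 ± 0.28 SE, limma adjusted p = 0.105). In MycT it was at 4.48 and 2.93 FPKM in doxycycline libraries, against 3.69 FPKM in untreated replicate 2 and 2.50 FPKM in the unnumbered library, with overlap (log2 change 0.20 ± 0.38 SE, limma adjusted p = 0.754). The ratio of Smad3 to Smad4 within a library was 0.535, 0.741 and 0.659 in doxycycline KrasT tumours and 1.04, 1.71 and 1.16 in untreated ones. In MycT it was 0.632 and 0.599 after doxycycline and 0.332 and 0.10 untreated. The doxycycline libraries of both models therefore fell into 1 narrow range, below the untreated KrasT libraries and above the untreated MycT libraries.

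**Figure D3:**
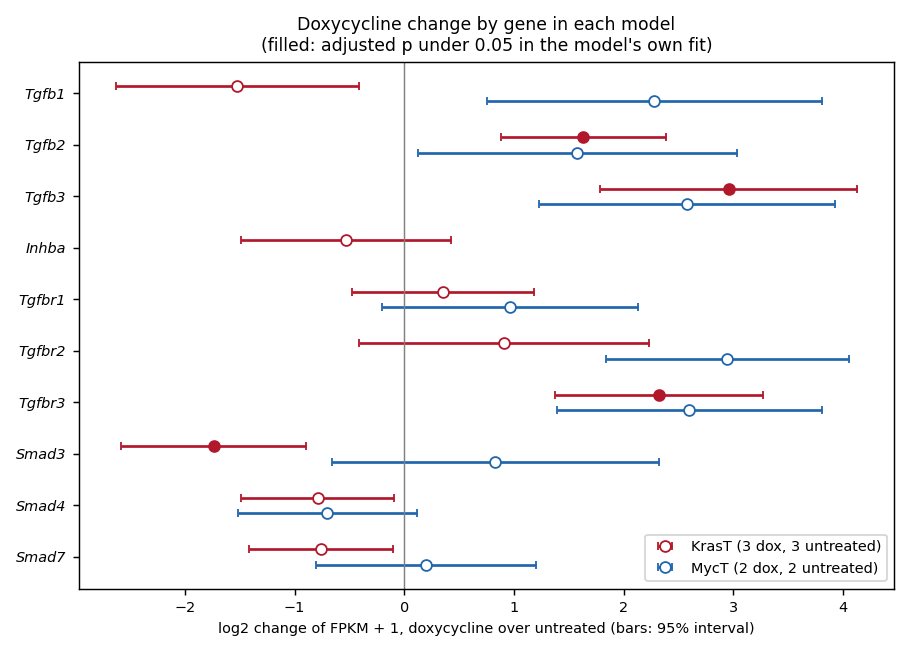
log2 change of FPKM + 1, doxycycline over untreated, for each gene in KrasT (upper point of each pair) and MycT (lower point), with 95% limma intervals; filled points have an adjusted p under 0.05 in the model's own fit. Inhba was not tested in MycT. Tgfb1 and Smad3 have KrasT points on the negative side (-1.52 and -1.74) and MycT points on the positive side (2.28 and 0.83).

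Whether the models differ was tested as the KrasT change minus the MycT change in the joint limma fit. Of the 9 genes, 0 passed, where 29 of 12073 genes did (0.240%). An unadjusted p under 0.05 was found for 3 of the 9 (Tgfb1, Tgfbr2 and Smad3) and for 19.9% of all genes. The difference was -3.80 ± 0.80 (SE, log2) for Tgfb1 (limma adjusted p = 0.0704), -2.57 ± 0.67 for Smad3 (0.0908) and -2.04 ± 0.82 for Tgfbr2 (0.216). For Tgfb2, Tgfb3 and Tgfbr3 it was 0.05 ± 0.61, 0.38 ± 0.79 and -0.28 ± 0.64, with 95% intervals of -1.33 to 1.44, -1.41 to 2.17 and -1.72 to 1.16. Without untreated KrasT replicate 1, Tgfb1, Smad3 and Tgfbr2 all passed (0.0302, 0.0223 and 0.0236), while 12.6% of all genes did. Without the unnumbered untreated MycT library the Tgfb1 difference was -4.42.

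Set in order across the 2 tables, a description without a test, Tgfb1 was highest in untreated KrasT tumours (mean 92.8 ± 10.4 FPKM, SD, n = 3) and lowest in untreated MycT tumours (6.32 ± 4.21 FPKM, n = 2). Doxycycline KrasT and doxycycline MycT tumours stood between them, at 36.8 ± 26.0 and 33.0 ± 14.3 FPKM, and overlapped. Untreated KrasT tumours were also highest for Inhba, Smad3, Smad4 and Smad7, though for Inhba they overlapped with the doxycycline KrasT tumours. Tgfb2, Tgfb3, Tgfbr1, Tgfbr2 and Tgfbr3 were highest in doxycycline KrasT tumours. Of these, Tgfb3 and Tgfbr2 had no overlap with the next group, doxycycline MycT tumours, while Tgfb2 and Tgfbr3 overlapped with it and Tgfbr1 overlapped with untreated KrasT tumours. Untreated MycT tumours were lowest for each gene but Smad4, which was lowest in doxycycline MycT tumours. For Tgfb2, Tgfb3, Smad3 and Smad7 the untreated MycT values overlapped with those of the next group.

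Other genes of the pathway were read from 5 lists. Some of their genes are shared with the marker lists above (Dcn, Col1a1, Col1a2 and Col3a1 with fibroblasts, Eng with endothelium, Acta2 and Tagln with smooth muscle). The lists also share genes with each other, and such genes are counted in each. The target list shares Skil, Smad6 and Pmepa1 with the intracellular list, Bambi with the receptor list and Ltbp2 with the latent ligand list. Among genes that store, bind or release latent ligand, 7 of 19 tested in KrasT rose and 1 fell, with a median log2 change of 1.02 beside -0.10 over all genes, of which 8.46% rose and 8.25% fell. Fibromodulin gene Fmod, whose product binds TGF-beta in the matrix, was at 126.8, 44.8 and 50.4 FPKM in doxycycline libraries, against 0.866, 0.260 and 1.14 FPKM in untreated ones, and rose by 5.29 (limma adjusted p = 0.00361, called in 6 of 6 fits that left out 1 library). Decorin gene Dcn, another such proteoglycan, rose by 5.35 and the matrix protease gene Mmp2 by 3.31 (called in 6 and 3 of 6 fits). The integrin gene Itgb1 fell, with 135.7, 95.5 and 100.8 FPKM in doxycycline libraries against 640.8, 308.7 and 340.2 FPKM in untreated ones (log2 change -1.89, limma adjusted p = 0.0184, 2 of 6 fits).

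In MycT all 19 genes of that list had positive changes, with a median of 2.22 beside 0.04 over all genes. By limma 0 of 19 passed in the MycT fit, where Dcn (4.73) and the latent TGF-beta binding protein gene Ltbp4 (2.26) had limma adjusted p of 0.0638 and 0.0652, and 9 of 19 rose in the joint fit, beside 8.11% of all genes. Led by Dcn, Mmp2 (4.21) and biglycan gene Bgn (3.65), these held in 4, 1 and 1 of 4 joint fits that left out 1 library. Ltbp4 itself was at 28.3 and 34.4 FPKM in doxycycline MycT libraries, against 4.27 and 7.55 FPKM in untreated ones.

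Among 15 tested other ligands and antagonists in KrasT, the activin B gene Inhbb rose and Lefty1, a nodal antagonist, fell, counts that lie near the 8.46% and 8.25% of all genes, and the median of 0.03 was near that of all genes (-0.10). Inhbb was at 10.8, 4.34 and 7.92 FPKM in doxycycline KrasT libraries, against 1.54, 1.47 and 2.63 FPKM in untreated ones (log2 change 1.54, limma adjusted p = 0.0352, called in 2 of 6 fits that left out 1 library). The Lefty1 change was -1.24 (limma adjusted p = 0.0434, 1 of 6 fits). In MycT Inhbb was at 14.7 and 6.69 FPKM in doxycycline libraries, against 0.596 and 2.72 FPKM in untreated ones (log2 change 2.17, limma adjusted p = 0.0946), and was the 1 gene of 12 to rise in the joint fit (0.0257), a share near the 8.11% of all genes. Bmp7, a BMP ligand gene, had a MycT change of 1.76 (limma adjusted p = 0.0689).

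Of 9 tested other receptor genes, 3 rose in KrasT: Eng and Acvrl1, both known from endothelial cells, by 2.41 and 2.29, and Bambi, which codes for a decoy receptor, by 1.44 (limma adjusted p = 0.0171, 0.0231 and 0.0446), where 8.46% of all genes rose. The other 6 had negative changes that did not pass, and the list's median was -0.22, beside -0.10 over all genes. In MycT 0 of 10 passed in its own fit, where the BMP type II receptor gene Bmpr2 (1.24) and Acvrl1 (2.03) had limma adjusted p of 0.0893 and 0.104, and 3 of 9 rose in the joint fit, beside 8.11% of all genes. The joint calls were Eng with 2.14, Acvrl1 and Bmpr2, held in 1, 1 and 0 of 4 fits that left out 1 library. The KrasT calls held in 3 (Eng), 2 (Acvrl1) and 1 (Bambi) of 6 such fits.

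Intracellular genes of the pathway, 17 tested, had a median of -0.58 in KrasT, beside -0.10 over all genes, and 2 of 17 fell, a share near the 8.25% of all genes. Tgif1, a SMAD corepressor, was at 31.0, 45.9 and 39.1 FPKM in doxycycline libraries, against 137.0, 120.7 and 119.6 FPKM in untreated ones (log2 change -1.69, limma adjusted p = 0.0107, called in 4 of 6 fits that left out 1 library). Strap, which codes for a receptor-associated inhibitor, fell by 1.38 (0.0149, 3 of 6 fits). In MycT the median was 0.21; Strap had a change of -1.40 and the ubiquitin ligase gene Smurf1 of 1.45 (limma adjusted p = 0.0750 and 0.0828 in the MycT fit). The joint fit called Strap as lower (0.00994, 3 of 4 fits) and Pmepa1, a pathway-induced inhibitor, as higher by 2.65 (0.0250, 1 of 4 fits), where 12.3% of all genes were lower and 8.11% higher.

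Genes commonly read as transcriptional targets of the pathway did not move as 1 group in KrasT. Of 26 tested, 7 rose and 2 fell, 13 changes were positive and 13 negative, and the median was 0.20 beside -0.10 over all genes. Among all genes 8.46% rose and 8.25% fell, so the share that fell was near the background. Those that rose were led by the collagen genes Col1a2 (3.33), Col1a1 (3.29) and Col3a1 (2.96), with limma adjusted p of 0.0122, 0.0134 and 0.0241, called in 3, 3 and 2 of 6 fits that left out 1 library. Cdkn2b, a cell cycle inhibitor, was at 11.8, 28.1 and 37.8 FPKM in doxycycline libraries, against 134.1, 113.7 and 76.4 FPKM in untreated ones, and fell by 2.12 (limma adjusted p = 0.0268, 2 of 6 fits). Id2, an inhibitor of differentiation factors, was the other to fall (limma adjusted p = 0.0357, 2 of 6 fits), with a log2 change of -1.30.

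In MycT 22 of the 26 targets had positive changes, with a median of 1.87 beside 0.04 over all genes, and 5 rose in the joint fit, beside 8.11% of all genes. The 2 of smallest p in the MycT fit were Bhlhe40, a transcription factor gene, with 2.84 and Pmepa1 with 2.65 (limma adjusted p = 0.0698 and 0.0865). Bhlhe40 was at 74.3 and 34.4 FPKM in doxycycline MycT libraries, against 3.88 and 9.62 FPKM in untreated ones. Joint calls led by size were Col1a1 (3.89), Col1a2 (3.76) and Bhlhe40, each held in 1 of 4 fits that left out 1 library. In the test of the difference between models 0 of the 26 passed by limma, as did 0 of the genes tested in each of the other 4 lists.

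**Figure D4:**
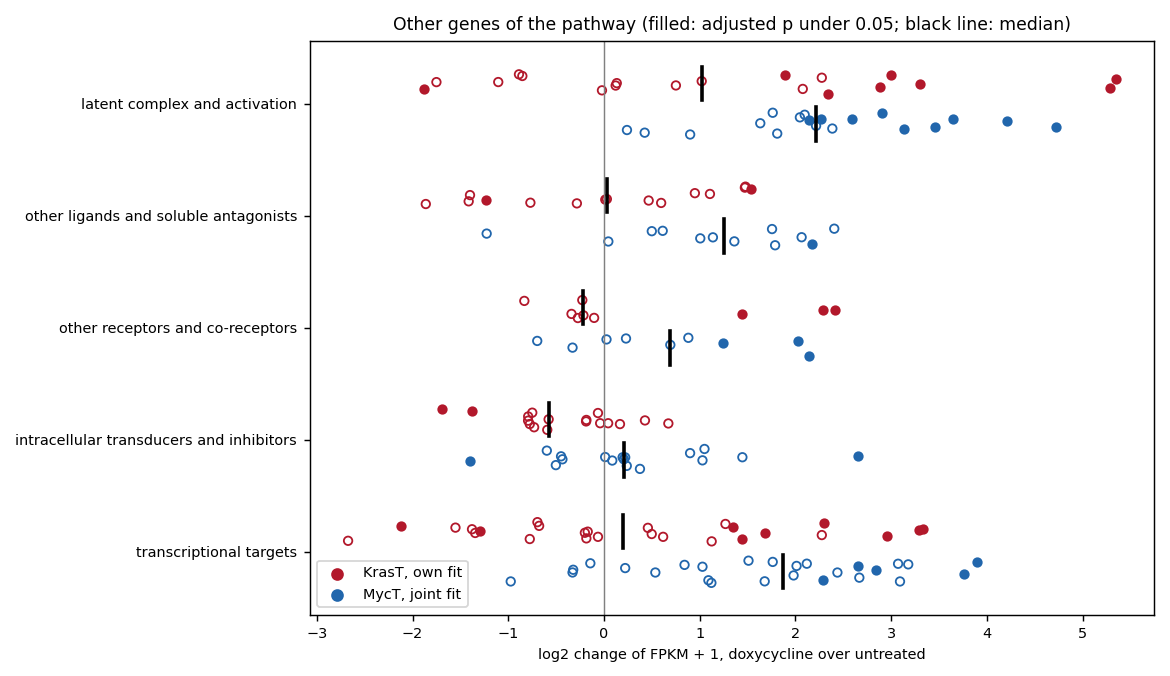
log2 change of FPKM + 1, doxycycline over untreated, of each tested gene in the 5 pathway lists, in the KrasT fit (upper points of each list) and the MycT contrast of the joint fit (lower points); filled points have an adjusted p under 0.05 and black lines are medians. The medians are 1.02 and 2.22 for latent complex and activation genes and 0.20 and 1.87 for transcriptional targets.

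Genes with the most similar pattern over the 10 libraries were found by the root mean square difference of log2(FPKM + 1), centred on each table's mean, among the other 12072 genes kept in both tables. For Tgfb1 they were Msn, Vim and Cd97, at distances of 0.248, 0.288 and 0.316, where the median gene was at 1.22. For Tgfb3 they were Maf, Gimap4 and Mmp23 (0.343, 0.352 and 0.359), and for Tgfb2 Usp2 and Dysf (0.208 and 0.307). Tgfbr2 was closest to Lrmp, Il1r1 and Rab11fip5 (0.264, 0.327 and 0.336), and Tgfbr3 to Cnrip1, Cercam and Nnmt (0.237, 0.253 and 0.260). Smad3 was closest to Rnf217, Maff and Tmem63b (0.282, 0.293 and 0.346). These distances share the libraries and the treatment difference and carry no test.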

How the data were processed

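RNA sequencing values came from 2 gene tables, for KrasT and MycT tumours, with 1 column per library. The authors deposited FPKM (fragments scaled by gene length and mapped fragments). The submitters' processing notes name cutadapt, TopHat and mm9. The program and annotation behind FPKM and any use of strand were not given in the sources used here, and depth in reads is unknown. Of the 23951 rows of each table, 27 whose symbols had become dates were left out. Of 10 widely expressed genes, 0 were listed at 0. Columns were matched by animal number, except 1 untreated MycT column whose number no label holds. That column was placed by the MycT and untreated names it carries. The labelled untreated MycT replicate 1 has no column with its number. The labels do not name separate transplant lines, so p-values measure the spread between these tumours.

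Genes with at least 1 FPKM in at least 3 KrasT or 2 MycT libraries were tested on log2(FPKM + 1), which understates changes of low genes, with limma 3.58.1 (eBayes with a trend, two-sided, Benjamini-Hochberg) in R 4.3.3. The joint fit took the 12073 genes kept in both tables. The fits were tested on simulated data with independent noise between genes and changes planted only in genes of higher level. That test does not cover low genes or genes that vary together between tumours. All 10 members are named. Per list and model up to 3 called rises and 3 called falls are named, or the 2 genes of smallest p, and for called members the 3 genes of most similar pattern, without predicted genes. Some genes named by that rule are not reported here. Members and lists were chosen with earlier results of these data known, and so were the tests. Python 3.11.15 and matplotlib 3.10.9 were used. The alternatives were a pseudocount of 0.1, no filter, median-ratio scaling, quantile normalization, the joint fit, leaving out libraries with Rn45s above 10000 FPKM and leaving out each library. Alternatives within the joint fit were added after seeing the data.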

Additional observations from a re-analysis of the deposited data

How the results depend on the processing

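In KrasT 4 of the 10 genes were called, and 4 under a pseudocount of 0.1, median-ratio scaling and the joint fit, 3 under quantile normalization and without the library high in Rn45s, and 0 without a filter on low values, where more genes were tested. Leaving out 1 library gave 0 to 5. All changes tested kept their direction under these alternatives. Genes called in all went from 2121 to 1214 without a filter, 1078 under quantile normalization and 1004 without the library high in Rn45s, and to 113 to 4223 with 1 library left out. Under median-ratio scaling 62.1% of KrasT calls were higher, beside 50.6%, and the median change of all genes moved from -0.10 to 0.01, a shift of 0.11.

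In MycT 0 members were called under each alternative but the joint fit, which called 5. Genes called in all were 5, and 2463 in the joint fit, 0 without a filter, 0 without the library high in Rn45s, and 0 to 0 with 1 library left out. In the joint fit 251 genes and 0 members were called without the libraries high in Rn45s, and 542 to 2099 genes (681 without doxycycline replicate 1, 899 without untreated replicate 2) and 0 to 4 members with 1 MycT library left out. Quantile normalization moved the median of all MycT genes by -0.12. The Smad7 change of 0.20 turned to -0.16 under quantile normalization (-0.21 in the joint fit) and to -0.043 without doxycycline replicate 1 and -0.015 without the unnumbered library, in a range up to 0.44 with 1 library left out.

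For the difference between models the genes called went from 29 to 18 with a pseudocount of 0.1, 136 without a filter and 0 without the libraries high in Rn45s, and to 0 to 1522 with 1 library left out, where 0 to 3 members were called. Differences near 0 turned sign: Tgfb2 from 0.05 to -0.17 with a pseudocount of 0.1, -0.35 without libraries high in Rn45s and -0.58 to 0.69 with 1 library left out, and Smad4 from -0.09 to 0.027 under median-ratio scaling, 0.11 under quantile normalization and -0.31 to 0.15 with 1 library left out. Tgfb3 ranged from -0.26 to 1.01 and Tgfbr3 from -0.76 to 0.20 with 1 library left out. The cause of these shifts was not tested.

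With 1 library left out the mean share of Tgfb1 in the ligand sum was 18.3% to 31.7% in doxycycline and 85.4% to 92.1% in untreated KrasT tumours, and that of Tgfb3 63.2% to 76.8% and 6.76% to 13.4%. No paired analysis was possible because no label pairs the tumours.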
